A study of Mus musculus with 20 samples.

Results

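Long noncoding RNAs were followed through RNA-Seq, POL-Seq, 3′ end sequencing and CRAC in NSC-34 cells, a mouse hybrid of neuroblastoma and motor neuron-enriched embryonic spinal cord cells. The members were 9 listed symbols, Malat1, Neat1, Meg3, Rian, Miat, Kcnq1ot1, Tug1, Pvt1 and Yam1. All 9 were among the 14924 genes of the RNA-Seq and POL-Seq counts, and 7 were among the 9621 genes with 3′ end counts, where Miat and Kcnq1ot1 were not listed. Only Malat1, Neat1, Tug1 and Yam1 were among the 1435 genes with a CRAC window. RNA-Seq of total RNA and POL-Seq of polysomal RNA had 2 libraries each from control cells and from cells induced for HuD. The 3′ end counts came from 3 control and 3 HuD libraries, and CRAC from 3 and 3. HuD cells were the Trex-HuD line, which expresses tagged human HuD from a tetracycline-inducible promoter. They received 2 μg/ml tetracycline for 48 h in all assays but CRAC. For CRAC, Trex-HuD cells and the Trex control cells, which lack the HuD construct, both received 10 μg/ml for 24 h by the labels, while the results text of the study gives another inducer, dose and time for CRAC. No inducer dose is given in the labels for the other controls, and all values describe 1 cell line.

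HuD is a neuronal RNA-binding protein of the ELAV family that binds U-rich stretches in RNA. Polysomes are mRNAs loaded with several ribosomes, so the ratio of polysomal to total RNA is read for coding transcripts as a measure of translation. Long noncoding RNAs carry no long reading frame. Many stay in the nucleus, where Malat1 gathers in speckles, bodies rich in splicing factors, and Neat1 forms the scaffold of paraspeckles. Malat1 and the long isoform of Neat1 are cut by RNase P and end in a triple helix in place of a poly(A) tail, while the short isoform of Neat1 has a poly(A) tail. Meg3 and Rian are expressed from the maternal copy of an imprinted cluster, and Kcnq1ot1 is an antisense RNA of the paternal copy of another. Miat is a nuclear RNA of neurons, Tug1 is found in nucleus and cytoplasm, and Pvt1 lies next to *Myc*. Yam1 was named as a muscle transcript associated with the factor YY1.

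Library totals were 21296012 to 36284728 counts for RNA-Seq and POL-Seq and 12986862 to 15751036 for the 3′ ends. *Elavl4*, which encodes HuD, had 78.5 and 95.1 counts per 1000000 of the library total (CPM) in total RNA of control cells and 240 and 211 in HuD cells, a log2 difference of 1.35 (SE 0.15, edgeR adjusted p = 0.0866). In polysomal RNA it had 90.8 and 116 against 249 and 227. In the 3′ end counts *Elavl4* had 81.6, 37.0 and 78.1 CPM in control replicates 1 to 3 and 56.6, 30.9 and 51.0 in the HuD libraries of the same numbers, lower in each of the 3 pairs. The log2 difference was -0.49 (SE 0.29), and with the replicate as a block it was -0.47 (SE 0.096, edgeR adjusted p = 0.0306). The ends counted are those of mouse *Elavl4*, so they do not check whether the human construct was induced. RNA-Seq and POL-Seq reads were also aligned to the mouse genome. How fully reads of the human construct are counted in the *Elavl4* values above is not known. Neuronal *Tubb3* stood at 559 to 689 CPM in the 8 libraries and *Nefl* at 156 to 192. *Chat*, the enzyme that makes acetylcholine, stayed at 0.45 to 0.61 CPM, and glial *Gfap* at 0.33 to 0.64 CPM. By the methods, total and polysomal RNA were pooled from fractions of a gradient loaded with cytoplasmic lysate, so how much nuclear RNA the libraries hold is not known.

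The levels of the members spanned several orders of magnitude in total RNA of control cells. To compare genes, counts were divided by the union length of each gene's exons to give FPKM. Yam1 was highest, with 765 ± 734 FPKM (SD, n = 2), but its libraries were far apart. Its reads cannot be told apart from those of ribosomal RNA, as given below, so this is the level of the locus. Malat1 had 14.6 ± 5.84 FPKM and Tug1 9.43 ± 0.183, a difference smaller than the SD of Malat1. Pvt1 followed with 4.55 ± 0.330 FPKM and Neat1 with 1.33 ± 0.261. Neat1 counts were divided by 20771 nt, its long isoform, while its short isoform has 3004 nt. How its counts divide between the isoforms is not known, so its FPKM and its place among genes hold for that length only. Rian had 0.261 ± 0.0592 FPKM. Meg3 had 0.0931 ± 0.0226, Kcnq1ot1 0.0876 ± 0.0523 and Miat 0.0600 ± 0.00856. Meg3 and Miat each lay within the SD of Kcnq1ot1, and Meg3 was above Miat by more than the SD of either. Malat1 thus stood at the 72.5th percentile of 14860 genes with a length, Neat1 at the 25.6th and Miat at the 0.808th. Miat rested on 9 to 27 counts per library and Meg3 on 29 to 81. The members other than Yam1 together made up 0.0791% of counts in replicate 1 of HuD total RNA and 0.0231% to 0.0306% in the other 7 libraries. A lower bulk count can stand for fewer cells carrying an RNA or for less of it per cell, which cannot be told apart here.

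**Figure D1:**
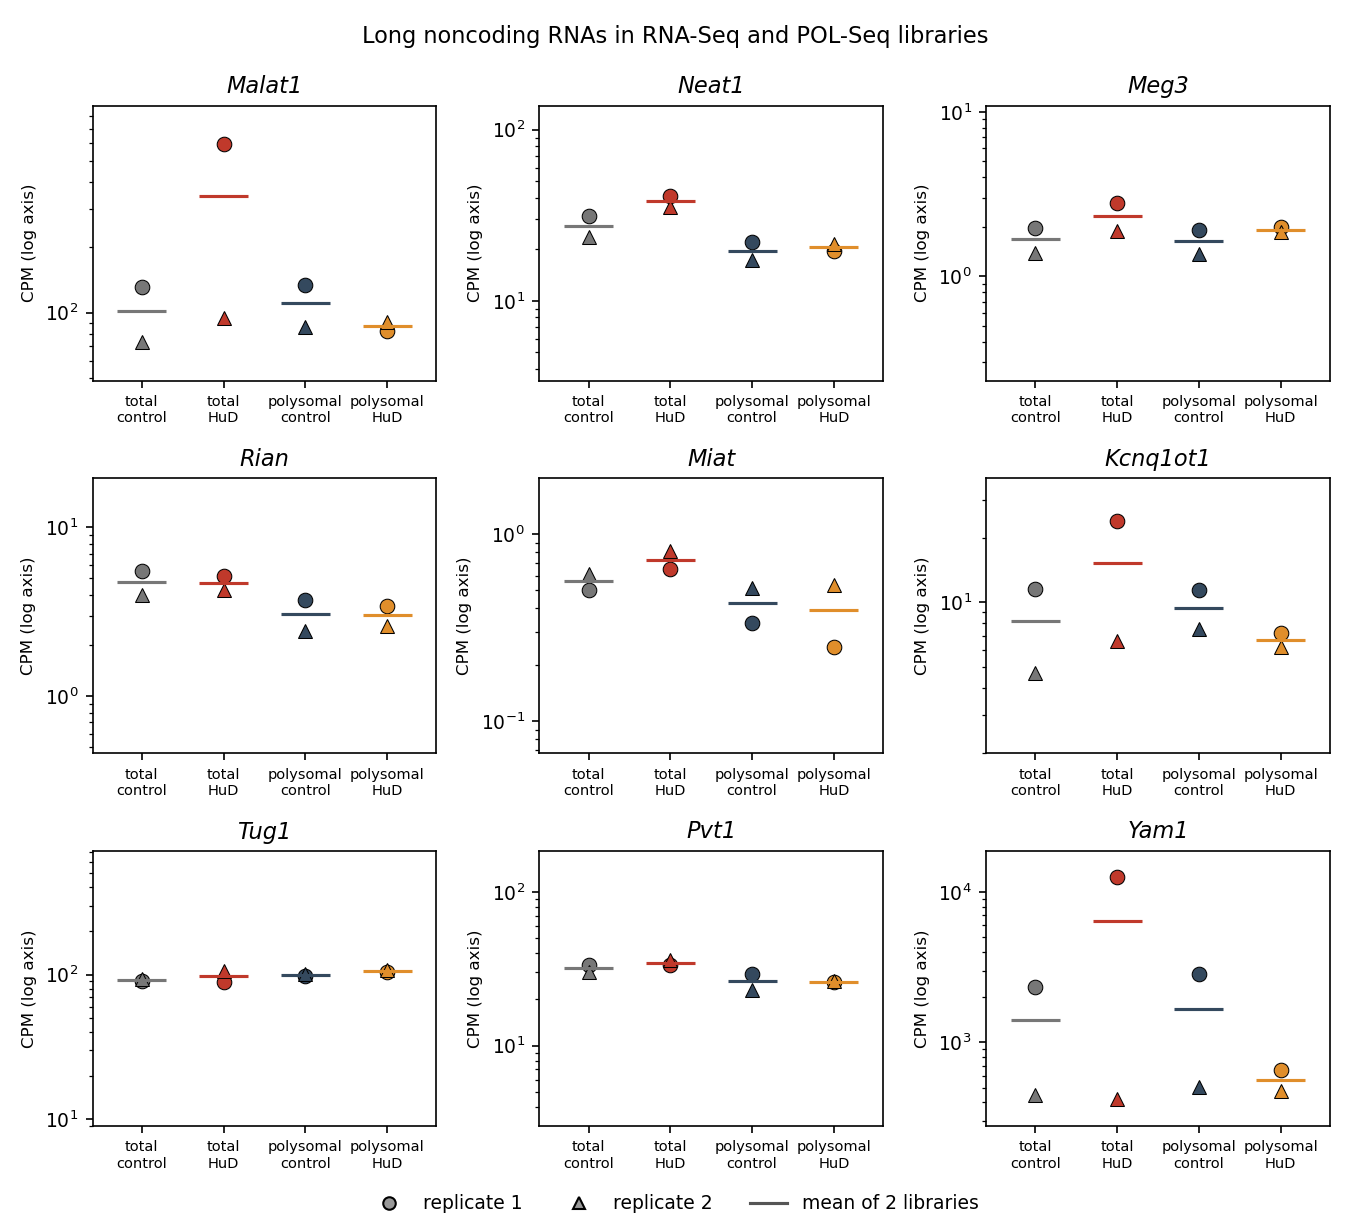
CPM of the 9 long noncoding RNAs (log axes) in total and polysomal RNA of control and HuD cells. Circles are replicate 1, triangles replicate 2 and lines the mean of 2 libraries. Malat1, Kcnq1ot1 and Yam1 are highest in replicate 1 of HuD total RNA, at 595, 23.9 and 12479 CPM, while Tug1 stays between 89.4 and 108 CPM.

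One library stood apart from the others for 3 members. Malat1 had 595 CPM in replicate 1 of total RNA from HuD cells and 94.3 in replicate 2. In the other libraries it had 131 and 73.1 CPM (total, control), 135 and 85.7 (polysomal, control) and 82.2 and 90.8 (polysomal, HuD). The replicates of total HuD RNA thus differed 6.31-fold for Malat1, the 11th largest ratio among 12907 genes with a mean of at least 1 CPM, of which 98% lay between 0.693 and 1.65. Yam1 differed 29.8-fold (12479 and 419 CPM) and Kcnq1ot1 3.61-fold (23.9 and 6.61 CPM). Neat1 differed 1.16-fold, Tug1 0.850-fold and Pvt1 0.925-fold, within the range of most genes.

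Some RNAs that are made without a poly(A) tail also differed between these replicates. *Rn7sk*, a small nuclear RNA that holds back transcription elongation, had 2830 counts in replicate 1 of HuD total RNA and 55 in replicate 2. *Rpph1*, the RNA of RNase P, had 509 and 3 counts, the ribosomal copy *n-R5-8s1* had 4631 and 25, and *Rn18s-rs5* had 183 and 5. *Rn18s-rs5* overlaps the locus of Yam1, as given below, so it is not independent of that member. The libraries were made by poly(A) selection. These RNAs and members were also higher in replicate 1 than in replicate 2 of control total RNA, by 9.37-fold for *Rn7sk*, 12.5-fold for *n-R5-8s1*, 5.22-fold for Yam1, 2.46-fold for Kcnq1ot1 and 1.79-fold for Malat1. In control polysomal RNA the corresponding ratios were 5.49, 11.5, 5.57, 1.503 and 1.57. In polysomal RNA of HuD cells they were 5.27, 2.13, 1.37, 1.16 and 0.905, and *Rpph1* and *Rn18s-rs5* differed 1.32-fold and 1.21-fold there. The list of 8 RNAs without a tail was chosen after its values were seen, and 6 of them had counts. *Rny1*, a Y RNA, had 162 and 14 counts in the replicates of HuD total RNA, while *Terc*, the RNA of telomerase, had 9 and 25 and did not move with the others. The part of this difference in the results for Malat1, Kcnq1ot1 and Yam1 was not tested, and each is given with and without that library.

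**Figure D2:**
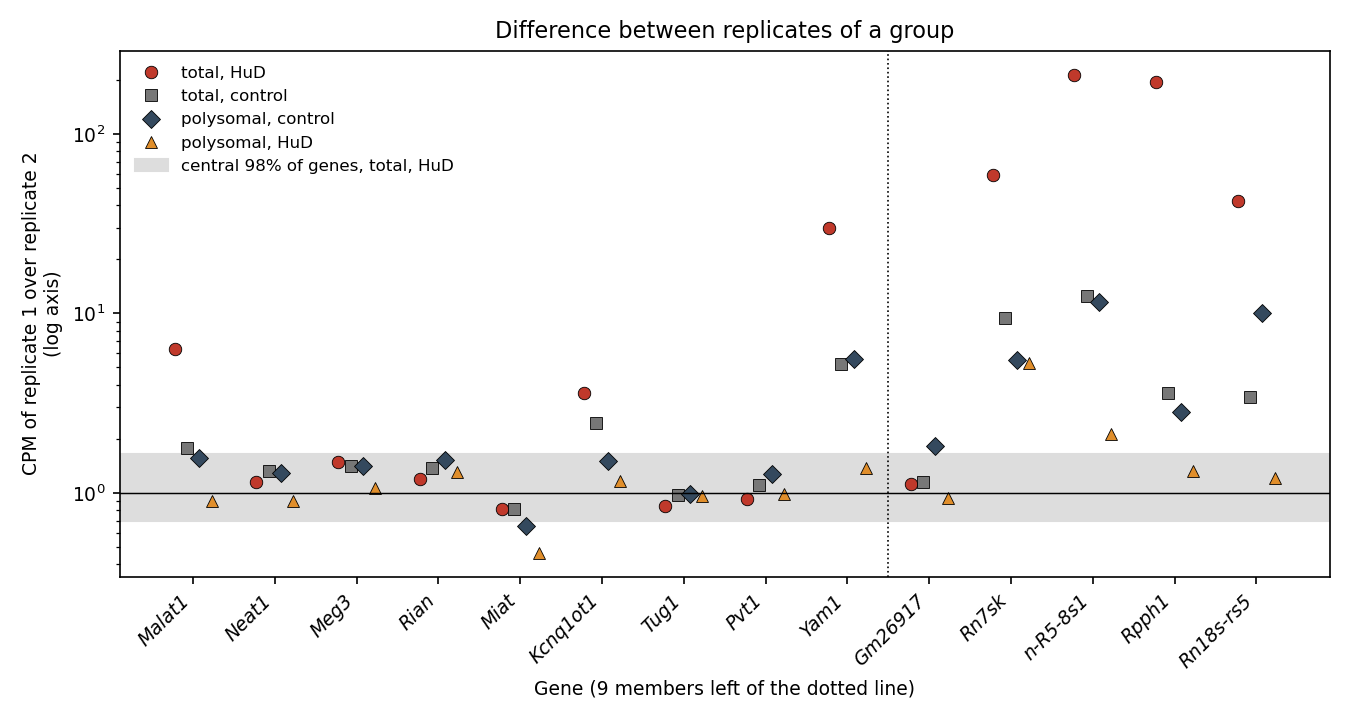
CPM of replicate 1 over CPM of replicate 2 (log axis) in each group, for the 9 members, for the neighbour of Yam1, Gm26917, and for 4 RNAs without a poly(A) tail. The grey band holds the central part of all genes in HuD total RNA, from 0.693 to 1.65. In total RNA of HuD and control cells Malat1, Kcnq1ot1 and Yam1 lie above it with the RNAs without a tail, and the other members lie inside it, while in polysomal RNA of HuD cells all members but Miat lie inside it.

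CRAC maps sites at which tagged HuD was crosslinked to RNA, since reverse transcription often skips the crosslinked base and leaves a deletion. Neat1, Malat1 and Tug1 had 1 window each, and Yam1 had 9. The windows of the first 3 are shown, because they are the places where HuD reads lay on a nuclear or mixed long noncoding RNA, with the listed 7 nt in capitals and 11 nt of the GENCODE vM21 transcript on each side.

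Neat1: aaaggagacuaGAUUUUGggacaguggac
Malat1: ggagccgagucCCUUUGCugugcugccuu
Tug1: ccaggggauuuUGUUUUGuuuauauuguc

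The Neat1 window lies on the minus strand at chr19:5845322-5845328 of GRCm38, in exon 1. It covers positions 151 to 157 of the 20771 nt long isoform and 149 to 155 of the 3004 nt short isoform, so it is shared by both. Of 20 reads over it in HuD cells, 13 had a deletion, a share of 65.0% (95% exact interval 40.8% to 84.6%), and 0 control reads covered it. The authors' combined p-value for this window was 0.0493. The share with a deletion lay at the 88.5th percentile of the 2896 windows by gene in the table, whose median was 17.6%. Coverage lay at the 39.3rd percentile.

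The Malat1 window is at chr19:5797462-5797468, minus strand, in the only exon of the 6983 nt transcript (positions 5205 to 5211). It had 29 reads with 9 deletions (31.0%, interval 15.3% to 50.8%), 1 control read and a combined p-value of 0.0829. The Tug1 window is at chr11:3645141-3645147, minus strand, in exon 2 of the 6719 nt transcript (positions 1357 to 1363). It had 24 reads with 3 deletions (12.5%, interval 2.66% to 32.4%), 0 control reads and a combined p-value of 0.283. Over all windows the medians were 29 reads and 5 deletions. Per CPM of the gene in control total RNA, Neat1 had 0.727 reads, Malat1 0.285 and Tug1 0.261, beside a median of 0.314 over 1336 genes. The reads are pooled over 3 libraries, so they carry no replicate error, and intervals cover counting error only.

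Yam1 had by far the most coverage of the members, and the smallest share of deletions. Its 6 plus-strand windows had a summed coverage of 19987 in HuD cells and 1099 in control libraries, a quotient of 18.2 that is not scaled for the depth of the CRAC libraries. Some of these windows overlap or lie a few bases apart, so a read can count in several of them. Their summed deletions were 43, or 0.215% of the coverage. Another 3 windows listed under Yam1 lie on the minus strand, with a summed coverage of 5966 in HuD and 376 in control libraries and 24 deletions (0.402%). With all 9 windows listed under it, on both strands, Yam1 ranked 2nd of 1435 genes by summed coverage and 39th by deletions. Of 86 genes with any control reads, the median quotient of summed HuD over control coverage was 82.0, and 10 genes had a lower one than Yam1.

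Annotation of the locus differs between releases. The gene ENSMUSG00000098178, Yam1 in the deposited tables, is Gm42418 in GENCODE vM21, at 39846958 to 39848788 of chromosome 17, plus strand. Its only vM21 transcript is on that strand. The minus-strand windows listed under Yam1 lie on another transcript, which vM21 names AY036118-201. RefSeq for GRCm38.p6 gives Gm42418 as a synonym of *Rn18s-rs5*, a copy of the small-subunit ribosomal RNA. For CRAC, *Rn18s-rs5* is listed on the minus strand with a summed coverage of 13738 in 6 windows. All of them but the window at 39846519 to 39846525, with 2093 reads, lie within the span of Yam1. Reads of Yam1 and of ribosomal RNA cannot be told apart from these tables, and the Yam1 values here are those of the locus. The windows shown are the most covered one of Yam1, the one with the most deletions, and a pair at nearly the same place on opposite strands.

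Yam1 most covered: guugguggagcGAUUUGUcugguuaauuc
Yam1 most deletions: uaagucccugcCCUUUGUacacaccgccc
Yam1 plus strand: uacuuugaaaaAAUUAGAguguucaaagc
Yam1 minus strand: uugaacacucuAAUUUUUucaaaguaaac

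These lie at chr17:39847715-39847721, with 4509 reads and 5 deletions, at chr17:39848047-39848053, with 3972 reads and 19 deletions, at chr17:39847171-39847177, with 2644 reads and 3 deletions, and at chr17:39847168-39847174, with 2687 reads and 17 deletions. The last pair is listed under the same interval in the table, and its control reads numbered 196 and 197. The minus strand window was also listed under *Rn18s-rs5*, with 2710 reads. UUU stood at positions 3 to 5 of the window in 6 of the 9 Yam1 windows and in each of the Neat1, Malat1 and Tug1 windows, beside 94.96% of 2896 windows over all genes, a share that the motif filter of the listing bears on.

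**Figure D3:**
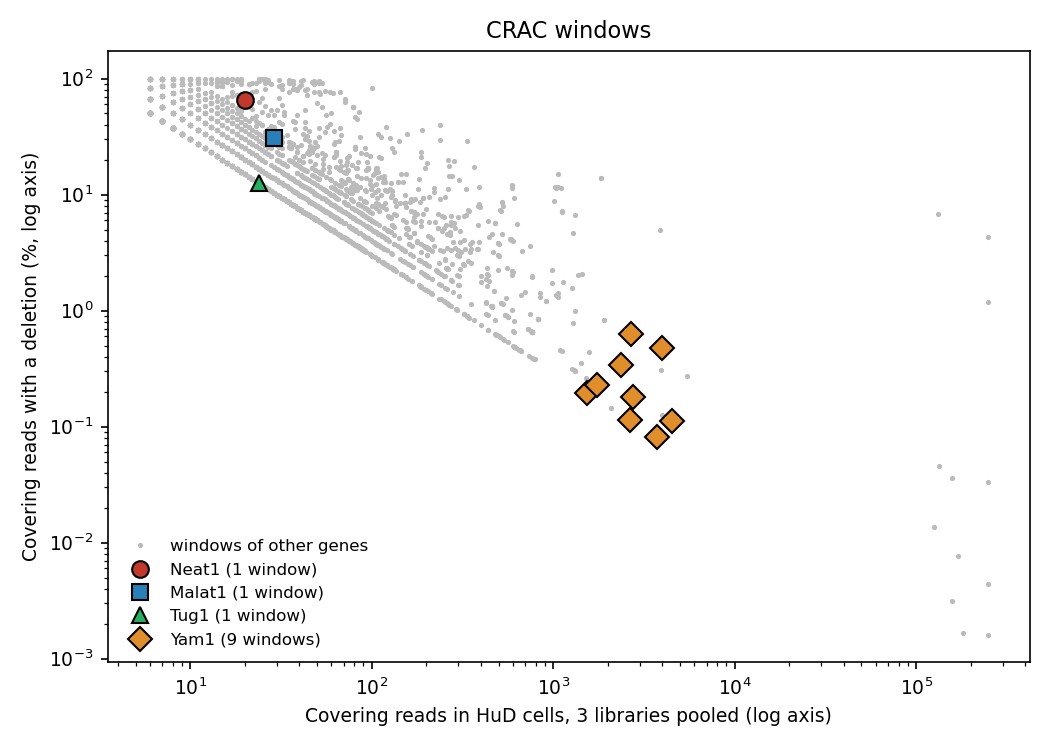
CRAC windows by covering reads in HuD cells (3 libraries pooled, log axis) and the percentage of those reads with a deletion (log axis), with 1 grey point for each window of another gene. The Neat1, Malat1 and Tug1 windows lie among the others at 20 to 29 reads, and the 9 Yam1 windows lie at 1544 to 4509 reads with 0.0806% to 0.633% of them carrying a deletion.

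No window was listed for Meg3, Rian, Miat, Kcnq1ot1 or Pvt1. A listing needed at least 6 reads and 3 deletions and, by the methods, reads and a deletion in each replicate and a motif score over a threshold, so reads may have lain there, and the absence of a window does not show that HuD was absent. Of 55 long noncoding genes with at least 20 CPM in control total RNA, 8 had a window (14.5%), beside 14.7% of 8119 protein coding genes at that level. Of 546 long noncoding genes between 1 and 20 CPM, 8 had one (1.47%). Runs of 3 or more U were counted in the longest transcript of each member. Tug1 had 27.7 runs per kb and Malat1 24.9, at the 95.7th and 90.8th percentiles of 1048 long noncoding genes. Rian, without a window, had 21.3 runs per kb, more than Neat1 with 20.7. Miat had 12.0 and Pvt1 12.4, below the median of 15.3.

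Polysomal RNA was compared with total RNA for each member. The ratio compares shares of library counts, so it does not give the fraction of an RNA that sediments with ribosomes. In control cells no member passed the test at an adjusted p under 0.05 (edgeR quasi-likelihood test, 0 members also with DESeq2). By an unadjusted p under 0.05, Neat1, Rian and Pvt1 were lower in polysomal RNA. At the adjusted threshold 26 of 14906 genes were lower (0.174%) and 0 were higher (0%), and at the unadjusted 931 were lower (6.25%) and 663 higher (4.45%). Over the 9 members the median log2 ratio was -0.0049, beside 0.01 over all genes and -0.27 over 1068 long noncoding genes. Of the latter, 9 were lower at the adjusted threshold, and 174 were lower and 5 higher at the unadjusted.

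Neat1 was lower in polysomal RNA of control cells without passing the adjusted threshold. It had 22.1 and 17.2 CPM in polysomal RNA and 31.4 and 23.7 CPM in total RNA. The log2 ratio was -0.48 (SE 0.15, edgeR unadjusted p = 0.0122, adjusted p = 0.458). In HuD cells the ratio was wider, with 19.5 and 21.5 CPM in polysomal RNA and 41.0 and 35.5 CPM in total RNA. The log2 ratio was -0.91 (SE 0.15, edgeR unadjusted p = 0.000178, adjusted p = 0.0402). Neat1 was the only member among the 73 of 14906 genes called lower in polysomal RNA (0.49%). At the same threshold 7 genes were higher (0.047%). At the unadjusted threshold 6 of the 9 members were lower in HuD cells, beside 7.59% of all genes, and 0 were higher, beside 4.85%. Of 1068 long noncoding genes 235 were lower and 6 higher at that threshold in HuD cells. At the adjusted threshold 25 of them were lower, and their median log2 ratio was -0.32. The count of 6 members depended on single libraries. Without replicate 1 of HuD total RNA the log2 ratio was -0.15 for Malat1 and 0.41 for Yam1. It was -0.81 for Neat1, -0.50 for Pvt1, -0.53 for Rian and -1.09 for Miat. Without replicate 1 of HuD polysomal RNA it was -0.82 for Neat1, -0.41 for Pvt1 and -0.84 for Rian. DESeq2 called 240 genes in either direction, Neat1 with an adjusted p of 1.09e-05, and 0 other members.

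The call for Neat1 was lost when 1 library was left out in 4 of the 8 cases, which left 1 library in that group. Its adjusted p was then 0.542 or 0.237 without a polysomal HuD library (replicate 1 or 2) and 0.225 or 0.15 without a total HuD library. Over 14 alternatives the adjusted p ranged from 1.09e-05 to 0.542, and the log2 ratio from -1.002 to -0.81. Without replicate 1 of control polysomal RNA, the control comparison called 2145 genes, with Neat1 (edgeR adjusted p = 0.0336) and Pvt1 (adjusted p = 0.0318) among them. Without replicate 2 of it the log2 ratio of Neat1 was -0.34 (edgeR unadjusted p = 0.0659), and without replicate 1 of control total RNA it was -0.28 (unadjusted p = 0.124). In neither case did Neat1, Rian or Pvt1 have an unadjusted p under 0.05 in control cells.

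Rian and Pvt1 were also lower in polysomal RNA but did not pass the adjusted threshold. Rian, an RNA of the maternal cluster that hosts small RNAs in its introns, had 5.52 and 3.99 CPM in total RNA of control cells and 3.73 and 2.44 in polysomal RNA, and 5.13 and 4.28 against 3.42 and 2.61 in HuD cells. Its log2 ratios were -0.60 (SE 0.24, edgeR unadjusted p = 0.0343, adjusted p = 0.462) and -0.65 (SE 0.24, adjusted p = 0.310). Pvt1 had 33.4 and 30.2 CPM in total RNA of control cells and 29.4 and 23.1 in polysomal RNA. In HuD cells it had 33.4 and 36.1 against 25.8 and 26.2. The log2 ratios of Pvt1 were -0.28 (SE 0.12) and -0.43 (SE 0.11, edgeR adjusted p = 0.180). Leaving out 1 library gave -0.93 to -0.37 for Rian and -0.44 to -0.14 for Pvt1 in control cells, lowest for both without replicate 1 of control polysomal RNA, and highest without replicate 1 of control total RNA for Rian and without replicate 2 of control polysomal RNA for Pvt1. In both cell types the polysomal libraries of Pvt1 and of Rian lay below their total libraries. How many of all genes did so was not counted, so this adds nothing to the tests.

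Tug1 was the member with the steadiest level, and its share of the counts was about the same in polysomal as in total RNA. It had 90.6 and 93.1 CPM in total and 98.4 and 100 in polysomal RNA of control cells, and 89.4 and 105 against 104 and 108 in HuD cells. The log2 ratios were 0.11 (SE 0.10) and 0.11 (SE 0.10). Meg3 had a log2 ratio of -0.0049 (SE 0.29) in control and -0.29 (SE 0.26) in HuD cells, with 1.36 to 2.79 CPM over the 8 libraries. Miat, at 0.25 to 0.81 CPM, had -0.45 (SE 0.44) and -0.94 (SE 0.41), the latter with an unadjusted p of 0.0486 and an edgeR adjusted p of 0.397.

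The ratios of Malat1, Kcnq1ot1 and Yam1 in HuD cells followed the library that stood apart. Malat1 had a log2 ratio of 0.12 (SE 0.63) in control and -1.998 (SE 0.65, edgeR adjusted p = 0.257) in HuD cells. Without replicate 1 of HuD total RNA the latter was -0.148 (SE 0.32). Yam1 had 0.25 (SE 1.23) in control and -3.51 (SE 1.35) in HuD cells, and 0.41 (SE 1.00) without that library. Kcnq1ot1 had 0.24 (SE 0.55) and -1.18 (SE 0.54), and -0.0047 (SE 0.44) without it. Kcnq1ot1 lies antisense to *Kcnq1*, and since the strand setting of the counting is not given, reads of the pair may be shared. Without replicate 2 of HuD total RNA, which leaves only the library that stood apart, Malat1 passed the threshold, with an adjusted p of 0.0485.

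**Figure D4:**
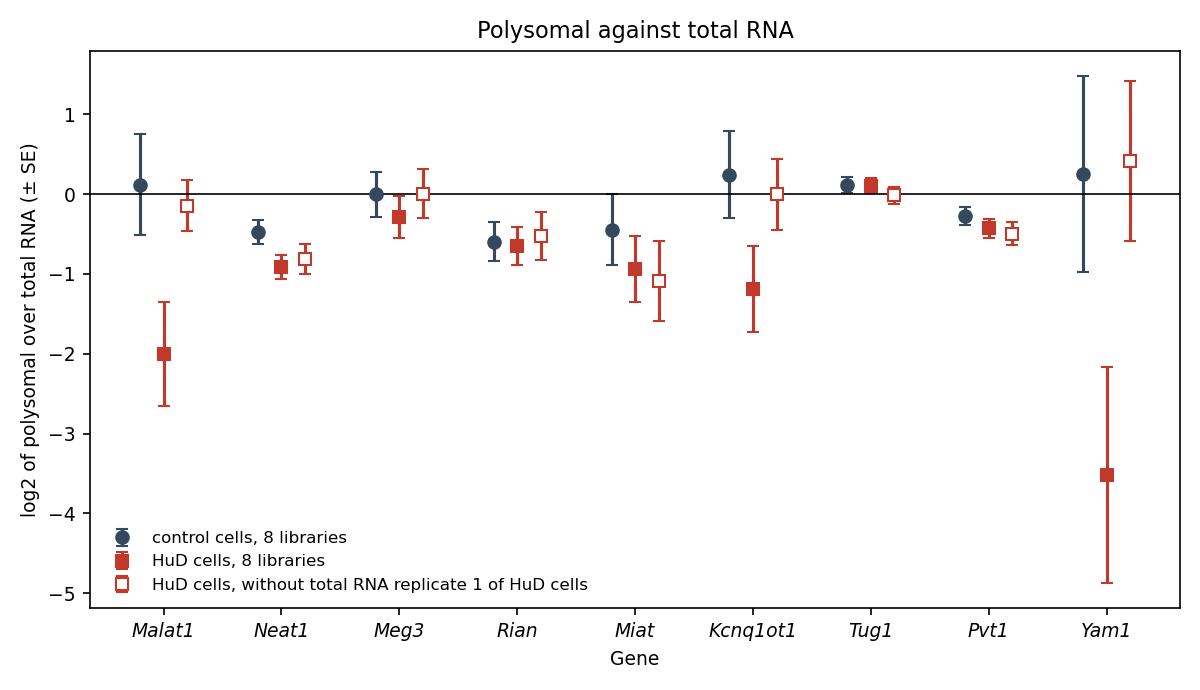
Log2 of polysomal over total RNA (± SE from the edgeR fit) for each member in control cells (circles) and HuD cells (filled squares), and in HuD cells without replicate 1 of total RNA (open squares). Neat1 stays at -0.91 and -0.81 in HuD cells, while Malat1 goes from -1.998 to -0.148 and Yam1 from -3.51 to 0.41.

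Other long noncoding RNAs gave a scale for these ratios. Of a list of 26, 18 were tested, and in control cells 16 of them had a log2 ratio below 0, with a median of -0.47 and 0 called. The highest were *Xist*, which silences the X chromosome, at 0.31, *Airn* at 0.14 and *Peg13* at -0.08. The lowest were *Rpph1* at -1.76, *H19* at -1.38 and *Mirg*, of the same imprinted cluster as Meg3 and Rian, at -1.22. In HuD cells 3 of the 18 were called lower (*H19*, *Mir124a-1hg* and *2900097C17Rik*) and the median was -0.60. This list and the RNAs without a tail share *Rpph1* and *Terc*. Of 14 snoRNA host genes, whose introns are cut into small nucleolar RNAs, 9 were tested. Their median was -0.95 in control cells, with 3 called lower, and -1.05 in HuD cells, with 4 called lower. Those called, named for that reason after their values were seen, were in control cells *Snhg6* at -1.24, *Snhg20* at -1.10 and *Gas5* at -0.95, and HuD cells added *Snhg12* at -1.08. Among all 14906 ratios of control cells, Rian stood at the 4.24th percentile, Neat1 at the 6.41st, Pvt1 at the 14.5th and Tug1 at the 70.4th. Gm26917, which adjoins Yam1 on chromosome 17, was named after its values were seen. It was lower in polysomal RNA, at -1.60 in control (edgeR adjusted p = 0.0295) and -1.79 in HuD cells (adjusted p = 0.0115), and its replicates in HuD total RNA differed only 1.13-fold.

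HuD cells were compared with control cells to ask whether induced HuD changed the level of a member. In total RNA 0 of 14906 genes passed the adjusted threshold with edgeR (0%), DESeq2 called 1, and 394 had an unadjusted p under 0.05 (2.64%). Malat1 and Neat1 were the members among the latter. Neat1 had 31.4 and 23.7 CPM in control and 41.0 and 35.5 in HuD cells. Its log2 difference was 0.45 (SE 0.15, edgeR unadjusted p = 0.0137, adjusted p = 1.00). Without replicate 1 of HuD total RNA it was 0.36 (SE 0.18, edgeR unadjusted p = 0.0861). Malat1 had a log2 difference of 1.73 (SE 0.64, edgeR unadjusted p = 0.0244), which became -0.12 (SE 0.32) without that library. Yam1 went from 2.18 (SE 1.28) to -1.74 (SE 1.07) and Kcnq1ot1 from 0.88 (SE 0.53) to -0.30 (SE 0.44). The other 5 members differed by -0.03 (Rian) to 0.45 (Meg3), none with an unadjusted p under 0.05.

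In polysomal RNA 0 members and 0 of 14906 genes were called with edgeR (0%), DESeq2 called 3 genes and no member, and 622 genes (4.17%) but 0 members had an unadjusted p under 0.05. Neat1 had a log2 difference of 0.02 (SE 0.15), Pvt1 of -0.05 (SE 0.12) and Tug1 of 0.05 (SE 0.10). Malat1 differed by -0.38 (SE 0.63) and Yam1 by -1.58 (SE 1.25). Each of these comparisons shares its libraries with the ratios above.

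The HuD effect on the polysomal to total ratio, tested as an interaction, was called for 0 of 14906 genes with edgeR (0%) and for 0 with DESeq2, and 146 genes had an unadjusted p under 0.05 (0.979%). Malat1 was the only member among them, at -2.11 (SE 0.90, edgeR unadjusted p = 0.0428, adjusted p = 1.00), and without replicate 1 of HuD total RNA it was -0.26 (SE 0.41). The change in ratio of Neat1 was -0.43 (SE 0.22, edgeR unadjusted p = 0.0740). The call of Neat1 in HuD cells and not in control cells is therefore not shown to be a difference between them. Tug1 had -0.0059 (SE 0.14) and Rian -0.05 (SE 0.34).

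The 3′ end counts hold only RNAs with a counted polyadenylation site, and give another reading of the HuD comparison in other libraries. Of 9621 genes 5 were called (0.052%) and 0 of the 7 listed members, with 565 genes (5.87%) and 0 members at an unadjusted p under 0.05, and 35 genes and 0 members with DESeq2. Same-numbered libraries varied alike in these counts, while the labels give only the numbers and name no pairs. With the replicate as a block 217 genes were called and still 0 members. Neat1 was counted at a single end, 5842307 on chromosome 19, which is the end of its short isoform. It had 222, 103 and 216 counts in control and 255, 74 and 276 in HuD cells, so the groups overlapped, and the log2 difference was 0.26 (SE 0.44), or 0.18 (SE 0.18) with the block.

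Malat1 was counted at 2 ends, the end of the gene at 5795690 and a site at 5801943 near its start. At the first it had 127, 41 and 93 counts in control and 95, 24 and 109 in HuD cells. At the second it had 58, 59 and 72 against 70, 39 and 60. Summed, its log2 difference was -0.08 (SE 0.36). Malat1 had 9.89 ± 2.64 CPM (SD, n = 3) in control and 9.30 ± 4.46 in HuD cells. Yam1, at 39848788 on chromosome 17, had 70, 102 and 85 counts in control and 75, 69 and 63 in HuD cells, with a log2 difference of -0.25 (SE 0.25).

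Tug1 had 19.3 ± 3.42 CPM in control and 21.7 ± 3.84 in HuD cells, with a log2 difference of 0.18 (SE 0.18). With the replicate as a block it was 0.18 (SE 0.11, edgeR adjusted p = 0.423). Rian had 15.6 ± 9.47 and 15.9 ± 11.1 CPM, and replicate 2 of each group held 4.69 and 3.11 CPM where the other libraries held 20.4 to 22.6. Pvt1 had 3 groups of ends, at 62107672, 62249526 to 62249528 and 62250973 to 62250975 on chromosome 15. Reads within 10 nt of each are counted by the methods, so ends 2 nt apart share reads. With such ends merged, Pvt1 was not called either. Summed as listed it had 27.8 ± 5.34 CPM in control and 25.5 ± 5.35 in HuD cells. With the replicate as a block the log2 difference was -0.12 (SE 0.10, edgeR adjusted p = 0.568). Meg3 had 10 to 31 counts per library and a log2 difference of 0.36 (SE 0.37).

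**Figure D5:**
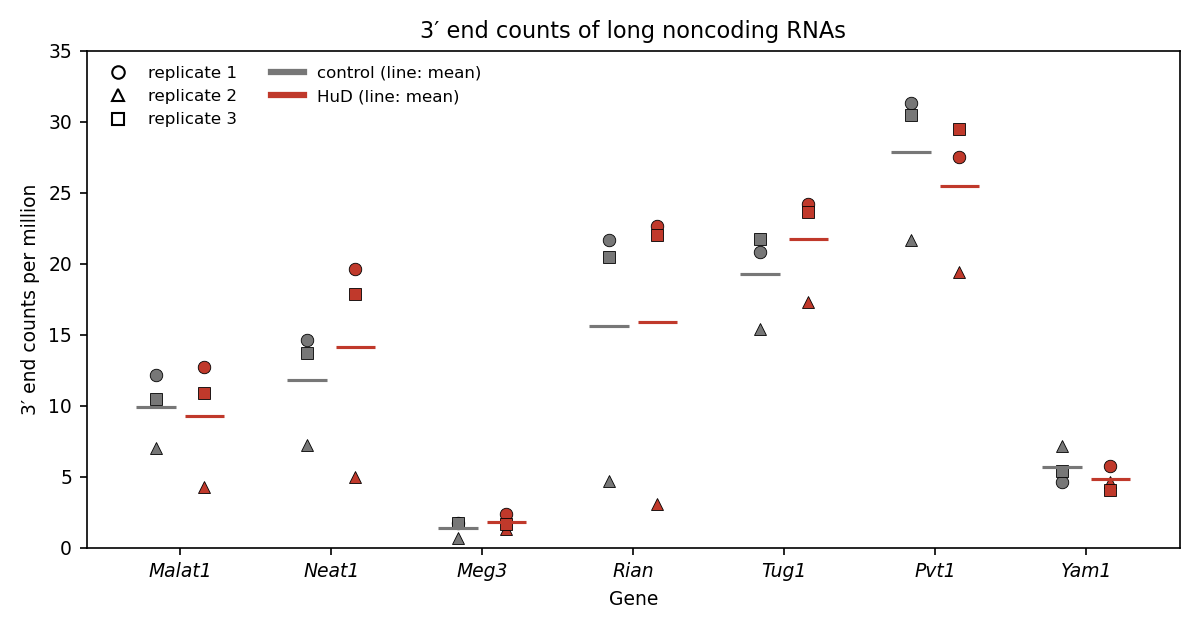
CPM of the 3′ end counts for the 7 listed members in control (grey) and HuD (red) libraries. Symbols mark replicates and lines the mean of 3 libraries. Replicate 2 is lowest in both groups for Malat1, Neat1, Meg3, Rian, Tug1 and Pvt1, and control and HuD values overlap for every member.

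Proteins and neighbours of the members were read from the same fits. Of 10 paraspeckle proteins, partners of Neat1 such as *Hnrnpk*, 10 were tested and 0 were called in HuD against control total RNA, with a median log2 difference of 0.06, beside -0.00 over all genes. Their median polysomal to total ratio was 0.14 in control cells and 0.08 in HuD cells, with 0 called. Of 10 nuclear speckle proteins, such as *Srrm2* and *Srsf1*, 10 were tested and 0 were called in either comparison, with medians of 0.00 in total RNA and 0.01 and 0.03 for the polysomal ratio. *Hnrnpk* had a log2 polysomal ratio of 0.26 in control cells. Of 14 neighbours of the members 8 were tested and 0 were called in these comparisons. *Myc*, next to Pvt1, had 231 and 233 CPM in control total RNA and 235 and 226 in HuD total RNA.

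The genes most like Malat1 and Neat1 over the 8 RNA-Seq and POL-Seq libraries were found by the root mean square difference of log2 CPM, each centred on its mean, among 9702 genes with at least 10 CPM. For Malat1 they were *mt-Nd6*, a mitochondrial subunit of complex I, at 0.321, *Lars2*, a mitochondrial leucyl-tRNA synthetase, at 0.626, and *Ahnak* at 0.696. *mt-Nd6* had 373 CPM in replicate 1 of HuD total RNA and 30.2 to 90.1 in the other 7 libraries. *Lars2* had 776 CPM there and 34.9 to 138 elsewhere. For Neat1 they were *Mir124a-1hg*, a host of the neuronal miR-124, at 0.127, *Amt* at 0.141 and *Tcea2* at 0.15. *Mir124a-1hg* had 13.2 and 12.1 CPM in control total RNA and 15.4 and 15.0 in HuD total RNA, above its 7.65 to 9.41 in polysomal RNA.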

How the data were processed

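RNA-Seq and POL-Seq counts per gene were deposited by the authors, who aligned reads of poly(A)-selected stranded libraries with STAR 2.5.3a to GRCm38.p4. The strand setting of the counting is not given in the sources used here. The deposited 3′ end counts list, transcript by transcript, reads that begin close to annotated polyadenylation sites. The authors' CRAC processing pooled 3 libraries, aligned them with TopHat2 2.0.14, and gave coverage as a signal in reads, counts of reads with a deletion, a combined p-value and a score against the authors' weight matrix. These pooled values have no replicates.

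The tests ran under edgeR 4.0.16 and R 4.3.3 (TMM, filterByExpr, quasi-likelihood test, Benjamini-Hochberg), with 1 mean per group over the 8 RNA-Seq and POL-Seq libraries, and separately over the 6 3′ end libraries after summing unique ends per gene. The SE is the log2 difference over the square root of the F statistic. DESeq2 1.42.0 was an alternative. The procedure was tested on simulated data. Figures and tables used Python 3.11.15, pandas 2.3.3, SciPy 1.17.1 and matplotlib 3.10.9. FPKM used GENCODE vM21 exon lengths by gene ID. For Kcnq1ot1 vM21 gives 93092 nt against a span of 84395 nt in the deposited table. Listed CRAC intervals did not hold the listed sequence, and the printed positions are those where it was found in the vM21 transcripts. A window listed for several transcripts of a gene was counted as 1, with the highest coverage and deletions.

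The members, lists and tests were chosen with earlier results of these data known. All members are named, with up to 3 of the other long noncoding RNAs at each end of the control ratio and up to 4 of each other list, those with the most counts. Listed genes named because they were called were chosen after their values were seen. Replicates are biological duplicates and triplicates of 1 line by the methods. For the 3′ ends, libraries of both arms with the same number varied alike (r = 0.400, 0.657 and 0.515). Alternatives changed the normalization, filter, test, block and the ends counted, and left out each library.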

Additional observations from a re-analysis of the deposited data

How the results depend on the processing

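The count of genes called depended strongly on the test, the block and single libraries, and the cause was not tested. For polysomal against total RNA in control cells (26 genes), an unadjusted p under 0.05 gave 1594 genes, DESeq2 67, the replicate block 41, a fit to the 2 groups alone 0, and leaving out 1 library 0 to 2145. In HuD cells (80 genes) these gave 1855, 240, 416, 353 and 0 to 411. For HuD against control in total RNA (0 genes) they gave 394, 1, 0, 1 and 0 to 1. In polysomal RNA (0 genes) an unadjusted p gave 622, DESeq2 3 and leaving out 1 library 0 to 372. For the change in ratio (0 genes) an unadjusted p gave 146 and leaving out 1 library 0 to 47. For the 3′ ends (5 genes) the unadjusted p gave 565, DESeq2 35, the block 217 and leaving out 1 library 2 to 14. Among the 8 alternatives chosen after seeing the data, leaving out replicate 1 of HuD total RNA together with the replicate block gave 52, 129, 2 and 1 genes in the first 4 comparisons, and merging ends within 20 nt with the block gave 251 for the 3′ ends. The counts of 2145, 372 and 47 were reached without replicate 1 of control polysomal RNA, and 411 (382 for replicate 1) without replicate 2 of it. In HuD cells 0 genes were left without either polysomal HuD library and 5 or 9 without a total HuD library, and in the 3′ ends the 14 came without HuD replicate 2. Replicate numbers of the RNA-Seq and POL-Seq libraries share only a number (r of 0.188 to 0.387 between deviations, 2 numbers).

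The members called moved less. In control cells they numbered 3 by an unadjusted p and 0 to 2 without 1 library. In HuD cells, where Neat1 alone was called, they numbered 6 by an unadjusted p, 2 with the block (Neat1 and Rian, with edgeR adjusted p = 0.00991 and 0.0438), 2 with the 2 groups alone (Neat1 and Pvt1), and 0 to 2 without 1 library. An unadjusted p gave 2 members for HuD in total RNA and 1 for the change in ratio. Counting only the most covered CRAC window of each member took the summed coverage from 26026 to 4582. Longest transcripts in place of exon unions kept the order of the FPKM. For Malat1, Neat1, Kcnq1ot1 and Yam1 both lengths are the same, so their FPKM could not change. The short isoform of Neat1 was not tried.

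Of the members' log2 values under the alternatives, 652 kept direction and side of the threshold, 49 changed sign, 7 newly passed it and 4 no longer did. Leaving out 1 library gave, for polysomal against total RNA in control cells, -0.23 to 0.57 for Malat1, -0.27 to 0.23 for Meg3, -0.27 to 0.99 for Kcnq1ot1 and -1.43 to 1.86 for Yam1. In HuD cells it gave -0.54 to 0.0039 for Meg3, -0.016 to 0.24 for Tug1 and -4.46 to 0.41 for Yam1. For HuD in total RNA it gave -0.12 to 2.52 for Malat1, -0.24 to 0.19 for Rian, -0.30 to 1.63 for Kcnq1ot1, -0.073 to 0.18 for Tug1 and -1.74 to 3.79 for Yam1. In polysomal RNA it gave -0.12 to 0.20 for Neat1, -0.010 to 0.44 for Meg3, -0.31 to 0.25 for Rian, -0.77 to 0.35 for Miat, -0.18 to 0.12 for Pvt1 and -2.33 to 0.099 for Yam1. For the change in ratio it gave -0.54 to 0.0083 for Meg3, -0.28 to 0.28 for Rian, -0.13 to 0.13 for Tug1, -0.29 to 0.012 for Pvt1 and -5.37 to 0.16 for Yam1. For the 3′ ends it gave -0.34 to 0.26 for Malat1, -0.0050 to 0.67 for Neat1, -0.38 to 0.53 for Rian and -0.26 to 0.039 for Pvt1. The remaining changes of sign were Meg3 in control cells with DESeq2 size factors (0.00046), Rian (0.075) and Yam1 (-0.46) in total RNA with the block and without replicate 1 of HuD total RNA, and Rian in the 3′ ends with the block (-0.035) and with merged ends as well (-0.030). None of the values that changed sign had passed the threshold in the reported test. Where a library was left out, the lone library of its group was taken to vary like the other groups. With 2 libraries a group and counts as low as 9 for Miat, these data limit the precision of each ratio.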
